A study of Rattus norvegicus with 6 samples.

Results

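The 9 contactin and contactin-associated protein genes examined here for chromatin peaks, in rat PC12 cells that express human α1ACT, were Cntn3, Cntn4, Cntn5, Cntn6, Cntnap2, Cntnap4, Cntnap5a, Cntnap5b and Cntnap5c. Peaks were taken by gene symbol from the authors' annotated table, which assigns each peak to the gene with the nearest transcription start site (TSS). Of the 9 genes, 8 had a row in that table, and together they were assigned 1283 of its 159452 peaks (0.805%). Cntnap2 had none. The genes were chosen by their symbols and selected on earlier counts of the peaks assigned to them, so those counts, the peak positions and the signals are a description and carry no test. The choice set no threshold.

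PC12 is a cell line from a rat adrenal tumour and is widely used as a neuronal model. The cells, at passages 18 to 20, stably expressed human α1ACT, a transcription factor encoded within the CACNA1A transcript and marked Q11 in the sample titles, or carried the pCDNA3 vector alone. Each line gave 1 library precipitated with the antibody labelled 1804, 1 with the M2 anti-FLAG antibody, and 1 input, so 6 libraries in all. The labels do not say what 1804 recognises, and the design text of the series speaks of tissues at day 3 where the sample labels name PC12 cells. Expression was not measured, so the cell type label was not checked against marker genes. The α1ACT line had 161730 peaks with 1804 and 81 with M2, and the empty-vector line had 272 with 1804 and 244 with M2. The annotated table lists 159452 of the α1ACT 1804 peaks. None of them overlaps an empty-vector peak, and they are called α1ACT-only peaks here, although the table also leaves out some peaks without such an overlap. With 1 library in each group no value has a replicate error, and read depth is unknown.

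Contactins are immunoglobulin-superfamily adhesion proteins held on the neuronal surface by a lipid anchor. The contactin-associated proteins, also called Caspr proteins, are single-pass membrane proteins of the neurexin superfamily. Members of both families bind one another or shared partners to build axonal domains and synapses, and many of their genes are very long and lie in gene-poor stretches. The table gave 1 transcript for each of the 8 genes, so alternative start sites were not counted.

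The promoter stretches below are shown because the matched genes differed in base composition next to the TSS. They are the 250 bases upstream of the TSS in RefSeq's GRCr8 assembly, which matched 6 of the 9 genes. That TSS need not be the one of the rn5 annotation used for the peaks. Of the 2 genes with a peak within 1000 bp of the TSS, Cntnap5b was matched and Cntnap4 was not. Their peaks lay 735 bp and 500 bp upstream of the annotated TSS, farther than the 250 bases taken here. Capitals mark CG dinucleotides. Cntnap5b lies at chr13:18378085-18378334 and Cntnap5c at chr13:3521294-3521543, both on the plus strand, Cntn4 at chr4:140180571-140180820 on the plus strand, and Cntn5 at chr8:15731958-15732207 on the minus strand.
Cntnap5b: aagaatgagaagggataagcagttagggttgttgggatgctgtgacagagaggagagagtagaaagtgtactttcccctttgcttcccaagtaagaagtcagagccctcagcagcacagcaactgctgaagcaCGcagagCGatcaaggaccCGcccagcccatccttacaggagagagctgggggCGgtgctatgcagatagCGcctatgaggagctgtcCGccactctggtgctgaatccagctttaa
Cntnap5c: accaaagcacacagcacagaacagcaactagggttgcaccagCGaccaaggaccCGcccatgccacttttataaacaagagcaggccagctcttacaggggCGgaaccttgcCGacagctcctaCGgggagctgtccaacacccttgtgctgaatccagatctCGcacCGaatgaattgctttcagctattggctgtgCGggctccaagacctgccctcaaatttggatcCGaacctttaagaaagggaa
Cntn4: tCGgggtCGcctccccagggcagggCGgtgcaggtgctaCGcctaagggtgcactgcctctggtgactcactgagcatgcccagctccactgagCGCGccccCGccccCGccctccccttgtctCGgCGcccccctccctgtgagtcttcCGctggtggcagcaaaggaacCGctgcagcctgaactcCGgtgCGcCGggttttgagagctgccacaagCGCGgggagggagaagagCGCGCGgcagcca
Cntn5: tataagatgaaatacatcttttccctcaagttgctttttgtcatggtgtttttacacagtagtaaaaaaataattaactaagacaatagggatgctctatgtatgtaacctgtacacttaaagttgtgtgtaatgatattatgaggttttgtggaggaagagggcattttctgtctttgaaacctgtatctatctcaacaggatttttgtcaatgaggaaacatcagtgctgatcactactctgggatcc

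These stretches held 6 CG dinucleotides in Cntnap5b, 9 in Cntnap5c, 20 in Cntn4 and 0 in Cntn5. The other matched genes, Cntn3 and Cntn6, had 0 and 5. Over 27457 rat promoters, 1 per gene, the median was 6, with 1 at the 10th and 25 at the 90th percentile. The median was 19 where the gene had an α1ACT-only peak no more than 1000 bp from its TSS, and 7 for the remaining genes of the table. Cntn4, with a count above 82.0% of all promoters, had no peak within 1000 bp, while Cntnap5b, at the median, had 1. The TATA-box letters TATAAA, searched on both strands, were found in Cntnap5c and in none of the other 5, and in 13.1% of all promoters. Cntnap5b and Cntnap5c, which are paralogs, shared a run of 14 bases, caaggaccCGccca. The longest run shared by any of the other 14 pairs among the 6 genes was 9 bases. Aligned over the full stretches, Cntnap5b and Cntnap5c were 50.7% identical, within the 42.7% to 53.5% of the other 14 pairs.

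Of the 8 genes, 2 carried a peak at the promoter, a count close to the share in genes of similar length. Cntnap4 and Cntnap5b each had a single peak no more than 1000 bp from the TSS, and the other 6 had none there. Of all genes listed, 43.2% had such a peak, and of genes of 200 kb or more 35.2% did. Counted as peaks, 2 of 1283 (0.156%, exact 95% interval 0.0189 to 0.562) lay that close, against 5.75% of all annotated peaks, 1.89% in other genes of 200 kb or more and 1.48% in those of 500 kb or more. The share was 0.231% in type II cadherin genes, and none of the 338 neurexin and neuroligin peaks lay that close. Each of the 8 genes is itself longer than 200 kb. The Cntnap4 peak lay on chromosome 19 from 55657949 to 55658004, 500 bp upstream of the TSS, with a signal of 5.45, above 91.1% of the annotated peaks. It was also the highest of the 37 Cntnap4 peaks. The Cntnap5b peak lay on chromosome 13 from 26870187 to 26870242, 735 bp upstream, with a signal of 3.18, above 54.1% of the annotated peaks. The signal is the authors' own value per peak; its unit and scaling are not stated. Widening the limit to 3000 bp added no gene. In the 6 genes without a promoter peak the nearest peak lay 21.3 kb from the TSS in Cntnap5c, 26.8 kb in Cntnap5a, 30.4 kb in Cntn5, 32.6 kb in Cntn3, 40.8 kb in Cntn4 and 48.2 kb in Cntn6.

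Most peaks lay outside the genes to which they were assigned. Of the 1283 peaks, 319 (24.9%, exact 95% interval 22.5 to 27.3) were inside the gene, where the share was 17.2% over the whole table and 30.7% over the other genes of 200 kb or more. Without Cntnap5b, which alone held 55.9% of the peaks, it was 40.5% (36.4 to 44.6), and Cntnap5c held 128 of those 229 inside peaks. By gene, Cntn3, Cntn4, Cntn5, Cntn6 and Cntnap4 had between 14.1% and 35.1% inside and Cntnap5b 12.6%. Cntnap5c had 68.1% and Cntnap5a all of its 7. The median per gene was 44.0% in the other genes of 200 kb or more. All 319 were intronic in the authors' annotation, 2 peaks were in promoters and 962 were distal intergenic. No peak of the 8 genes was annotated to an exon or an untranslated region. With the downstream class these classes held 1.57% of the table and 0.301% in other genes of 200 kb or more. Of the 964 outside peaks 819 (85.0%) lay upstream, and 65.3% did without Cntnap5b, against 58.4% over the table and 64.9% in other genes of 200 kb or more. In distance, 659 peaks (51.4%) lay over 1 Mb from the TSS, against 8.35% over the table and 12.5% in other genes of 200 kb or more. Of these 492 belonged to Cntnap5b, 111 to Cntnap5c and 56 to Cntn5, and the other 5 genes had none. Without Cntnap5b the share was 29.5%.

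**Figure D1:**
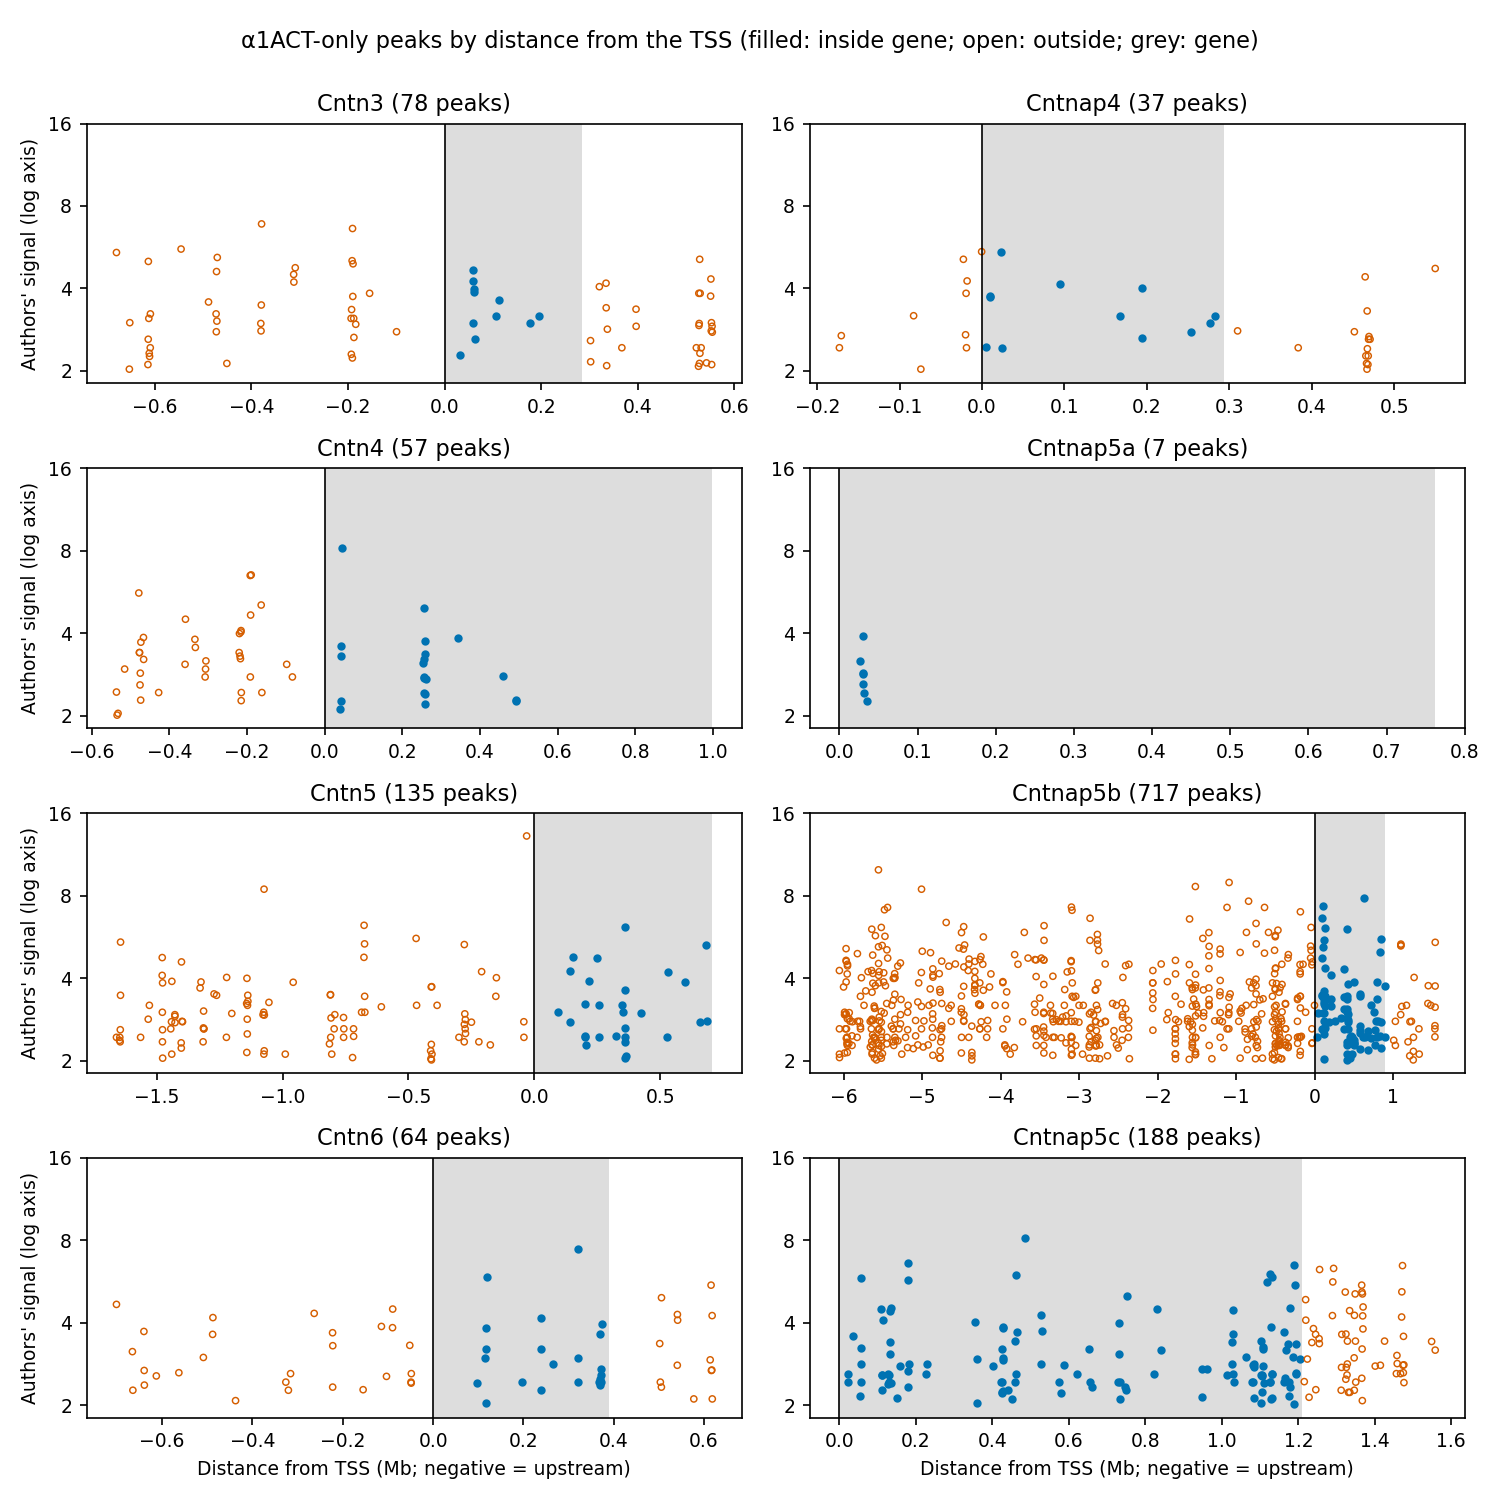
Distance of each α1ACT-only peak from the TSS of its assigned gene (Mb, horizontal, negative upstream) against the authors' signal (log axis), for the 8 genes, 1 panel each; filled points lie inside the gene, open points outside, and the grey band is the gene. Cntnap5b peaks reach 6.06 Mb from the TSS, Cntnap5c has no peak upstream, and the highest point of all, at 13.2, is the Cntn5 peak 30.4 kb upstream of the TSS.

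**Figure D2:**
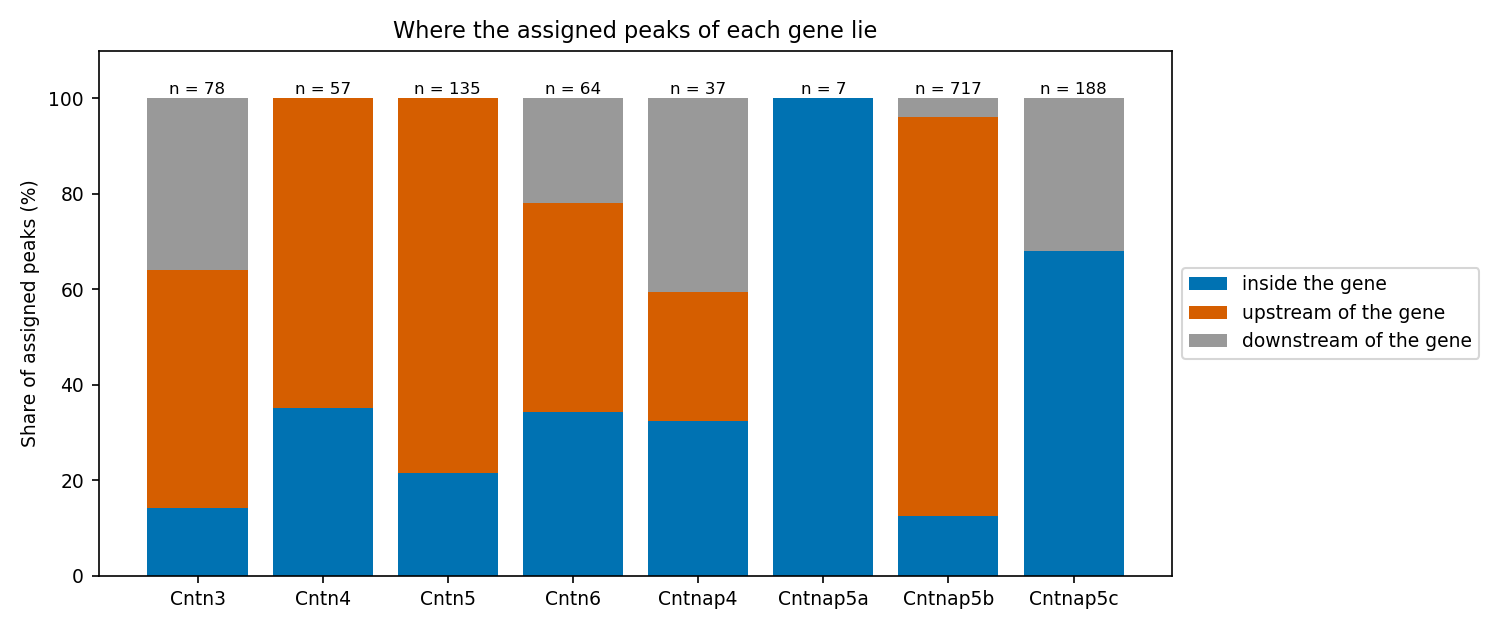
Share of the assigned peaks of each gene (%) that lie inside the gene, upstream of it or downstream of it, with the number of peaks above each bar. Shares inside include 12.6% in Cntnap5b and 68.1% in Cntnap5c, and all 7 peaks of Cntnap5a were inside.

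Among the contactins, Cntn3, Cntn6 and Cntn4 followed each other on chromosome 4. Cntn3 (gene ID 54279, chromosome 4 from 199262482 to 199546616, minus strand), whose protein is also known as BIG-1, was assigned 78 peaks, of which 11 lay inside (14.1%, 7.26 to 23.8), 39 upstream and 28 downstream. Signals lay between 2.03 and 6.88, and the median was 3.02. The highest was 378.8 kb upstream of the TSS, from 199925426 to 199925481. None of the 11 peaks inside was in the upper 10% of the table by signal.

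Cntn6 (27256, chromosome 4 from 200983505 to 201373876, plus strand), known as NB-3 and studied in mouse cerebellum, was assigned 64 peaks, 22 of them inside (34.4%, 22.9 to 47.3), 28 upstream and 14 downstream. Signals lay between 2.04 and 7.46, and the median was 2.76. Its highest peak lay in intron 12 of 23, from 201304763 to 201304818. The 67 peaks between Cntn3 and Cntn6, over 1.44 Mb, were assigned to these 2 genes alone. In the GRCr8 gene order Chl1, an L1-family adhesion gene, lies between them, and it had no row in the annotated table.

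Cntn4 (116658, chromosome 4 from 202256312 to 203254911, plus strand), also known as BIG-2 and a guidance molecule of mouse olfactory axons, was assigned 57 peaks. Of these 20 were inside the gene (35.1%, 22.9 to 48.9) and 37 upstream, and none was downstream. Signals ran from 2.01 to 8.16, and the median of 3.11 was the highest of the 8 genes. The highest peak was in intron 1 of 24, from 202302155 to 202302210 and 45.9 kb from the TSS. By position the gene held 41 peaks, because a further 21 at its far end, the first of them at 202785592, were assigned to Il5ra, an interleukin receptor gene.

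Cntn5 (114589, chromosome 8 from 7793982 to 8501166, minus strand), or NB-2, which is known from the mouse auditory pathway, was assigned 135 peaks, 29 inside (21.5%, 14.9 to 29.4) and 106 upstream. It held the strongest peak of the 8 genes. That peak lay from 8531607 to 8531662, 30.4 kb upstream, with a signal of 13.2, above 99.7% of the annotated peaks. The next highest Cntn5 peak had 8.44, and the median was 2.83. Of the 9 Cntn5 peaks in the upper 10% of the table, 2 were inside the gene.

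Among the Caspr genes, Cntnap4 (307865, chromosome 19 from 55658449 to 55952179, plus strand), which in mouse acts at synapses of interneurons and dopamine neurons, had 37 peaks over 0.723 Mb. There were 12 inside (32.4%, 18.0 to 49.8), 10 upstream and 15 downstream, with signals from 2.03 to 5.45. The peaks inside had a median of 3.18 and those outside 2.67. Besides the promoter peak, the only Cntnap4 peak in the upper 10% of the table was in intron 1 of 22, from 55681603 to 55681658, with 5.42.

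The Cntnap5 genes, described in rodents from their expression in the nervous system, all lay on chromosome 13, and differed widely in their number of peaks. Cntnap5a (297832, from 78412 to 840714, plus strand) was assigned 7, all within 8.03 kb of intron 1, with signals from 2.27 to 3.92. By position it held 50, because 43 inside it were assigned to LOC100359649, which the table names a selenoprotein K pseudogene. Cntnap5c (297846, from 11594156 to 12804561, plus strand) was assigned 188, with 128 inside (68.1%, 60.9 to 74.7) and 60 downstream. Inside the gene lay 10 of its 15 peaks in the upper 10% by signal. The highest, 8.16, was in intron 3 of 23, from 12079086 to 12079141. Nothing was listed upstream of Cntnap5c: a stretch of 5.60 Mb from 6014910 to its first peak at 11615408 held no α1ACT 1804 peak. The next longest such stretch on the chromosome was 310.2 kb. The TSS of Cntnap5c, at 11594156, lies within the 5.60 Mb stretch. Gene order differs between assemblies here, since Cntnap5a comes first in the rn5 table and Cntnap5c comes before it in GRCr8.

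Cntnap5b (301650, from 26870922 to 27774438, plus strand) was assigned 717 peaks, more than any of the other 14344 genes that the table places on 1 chromosome. Of these 90 (12.6%, 10.2 to 15.2) were inside, 599 upstream and 28 downstream. The upstream peaks extended for 6.06 Mb at 98.9 per Mb, and the gene itself held 99.6 per Mb. The number per 1 Mb was 135 in the stretch next to the TSS and 84, 66, 82, 84 and 143 in those farther upstream. Over all 1 Mb windows with a peak the median was 51 and the 90th percentile 95. Their signal was not high. The median was 2.83 inside and 2.93 outside, against 3.02 for all annotated peaks, and 49 (6.83%) were in the upper 10%. The highest, 9.93, was 5.56 Mb upstream, from 21312412 to 21312467, and the next, 8.93, was 1.09 Mb upstream, from 25782098 to 25782153. These followed the Cntn5 peak as the 3 highest of all 8 genes.

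Across the 8 genes the signal was low to middling. The median was 2.88, with gene medians from 2.76 in Cntn6 to 3.11 in Cntn4, a narrow range beside the spread within each gene. Of the 1283 peaks 86 (6.70%, 5.40 to 8.21) exceeded 5.28, the limit of the upper 10%, against 10.0% of the whole table by construction. The share was 5.99% in the 4 contactins and 6.95% in the 4 Caspr genes with peaks, 7.93% in other genes of 200 kb or more, and 0 of 7 peaks in Cntnap5a. Peaks often lay close together: 43.3% had another within 500 bp, against 37.2% over the table.

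**Figure D3:**
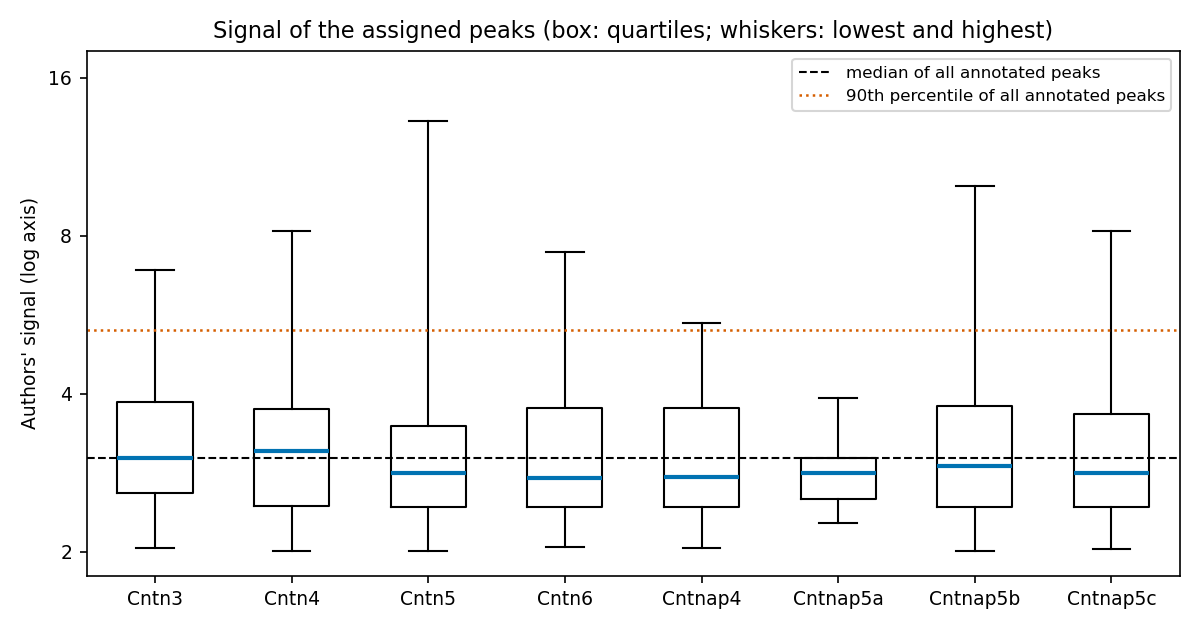
Authors' signal (log axis) of the peaks assigned to each of the 8 genes; boxes give quartiles, whiskers the lowest and highest peak, and lines the median (3.02) and 90th percentile (5.28) of all annotated peaks. Medians lie between 2.76 and 3.11, and only Cntn5 has a peak above 10.

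Counted by position, regardless of assignment, peak density differed among the genes. Cntnap5c held 105.7 and Cntnap5b 99.6 peaks per Mb, against 60.5 over chromosome 13, and Cntnap5a held 65.6. Chromosome values are means over the 1 Mb windows that hold a peak. Cntn6 held 56.4, Cntn4 41.1 and Cntn3 38.7 per Mb against 41.7 over chromosome 4. Cntn5 held 41.0 against 53.1 over chromosome 8, and Cntnap4 40.9 against 69.6 over chromosome 19. So 4 of the 8 genes exceeded their chromosome, where 30.0% of genes of 200 kb or more did. The other genes of that length had a median of 42.7 per Mb, with 14.0 at the 10th and 98.1 at the 90th percentile. Cntnap5b and Cntnap5c lay above 90.2% and 90.9% of such genes, and Cntn3, Cntn4, Cntn5 and Cntnap4 near the middle.

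**Figure D4:**
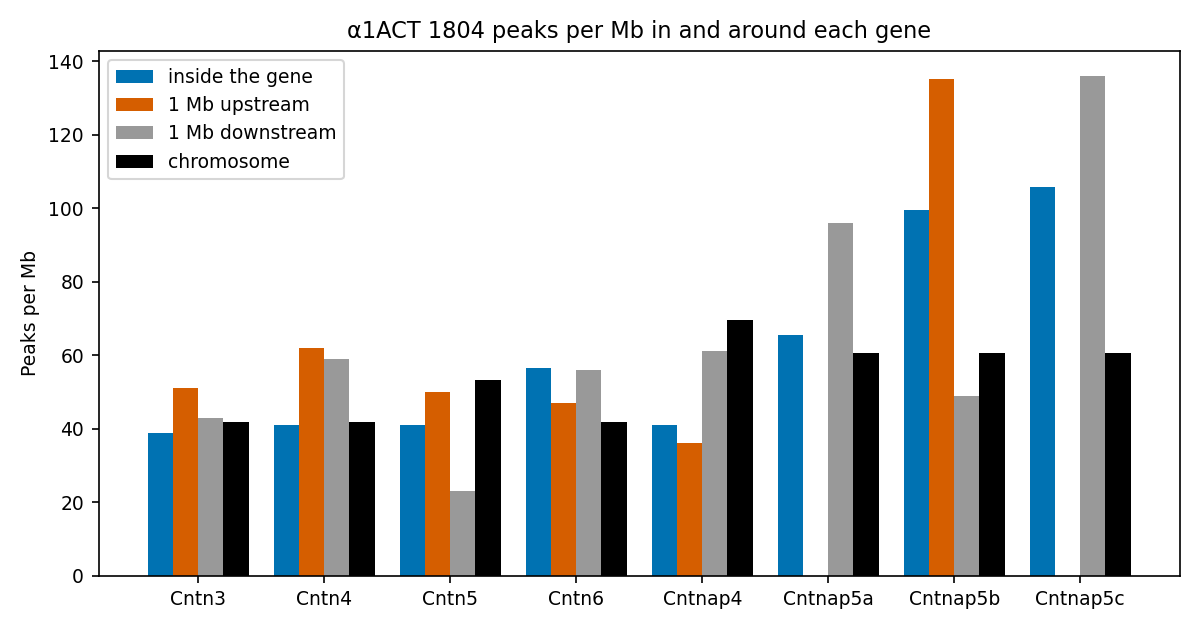
Peaks of the α1ACT 1804 list per Mb inside each gene, in the 1 Mb upstream, in the 1 Mb downstream and over the chromosome. Cntnap5b and Cntnap5c stand highest inside the gene, at 99.6 and 105.7; Cntnap5c has 0 in the 1 Mb upstream, and no upstream bar is drawn for Cntnap5a, which starts less than 1 Mb from the chromosome end.

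Within the genes the peaks were spread along the whole length. Divided into 3 equal parts from the TSS to the gene end, the 8 genes held 134, 116 and 133 peaks (35.0%, 30.3% and 34.7%). Other genes of 200 kb or more held 34.5%, 33.7% and 31.8%. Of 279 intron peaks in the plus-strand genes 79 were in intron 1 (28.3%), and the count was 1087 of 3889 in other plus-strand genes of that length.

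By the same count of position, Cntn4 had 16 peaks in the 5′ part, 11 in the middle and 14 in the 3′ part. Cntn3 had 7, 3 and 1 in the same order, while Cntn6 had 6, 4 and 12. Cntn5 had 9, 14 and 6, and Cntnap4 had 6, 3 and 3. Cntnap5a had 23, 9 and 18, Cntnap5b 32, 36 and 22, and Cntnap5c 35, 36 and 57. No one part held the most peaks in all 8 genes. The gap between neighbouring peaks, inside and outside together, had a median of 1.25 kb in Cntnap5b, 1.31 kb in Cntnap5c and 0.860 kb in Cntn3. It was 0.405 kb for the 7 peaks of Cntnap5a, 1.08 kb in Cntn4, 1.91 kb in Cntn5, 1.93 kb in Cntn6 and 3.58 kb in Cntnap4. Joining peaks less than 500 bp apart left 526 of the 717 in Cntnap5b, 148 of 188 in Cntnap5c, 103 of 135 in Cntn5 and 52 of 78 in Cntn3. It left 48 of 64 in Cntn6, 45 of 57 in Cntn4, 29 of 37 in Cntnap4 and 3 of 7 in Cntnap5a. Merging thus removed a part of the peaks of every gene.

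The flanks differed as well. The 1 Mb upstream of the TSS held 135 peaks of the α1ACT 1804 list in Cntnap5b and 0 in Cntnap5c, where it falls in the 5.60 Mb stretch without a peak. The 1 Mb past the gene end held 49 in Cntnap5b and 136 in Cntnap5c. Cntnap5a had 96 in the 1 Mb downstream. Among the contactins the upstream 1 Mb held 62 peaks in Cntn4, 51 in Cntn3, 50 in Cntn5 and 47 in Cntn6. The downstream 1 Mb held 59, 43, 23 and 56 in the same order. The upstream flanks of Cntn3 and Cntn6 overlap, as do the upstream flank of Cntn4 and the downstream flank of Cntn6. Some peaks are therefore counted more than once. Cntnap4 had 36 upstream and 61 downstream.

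**Figure D5:**
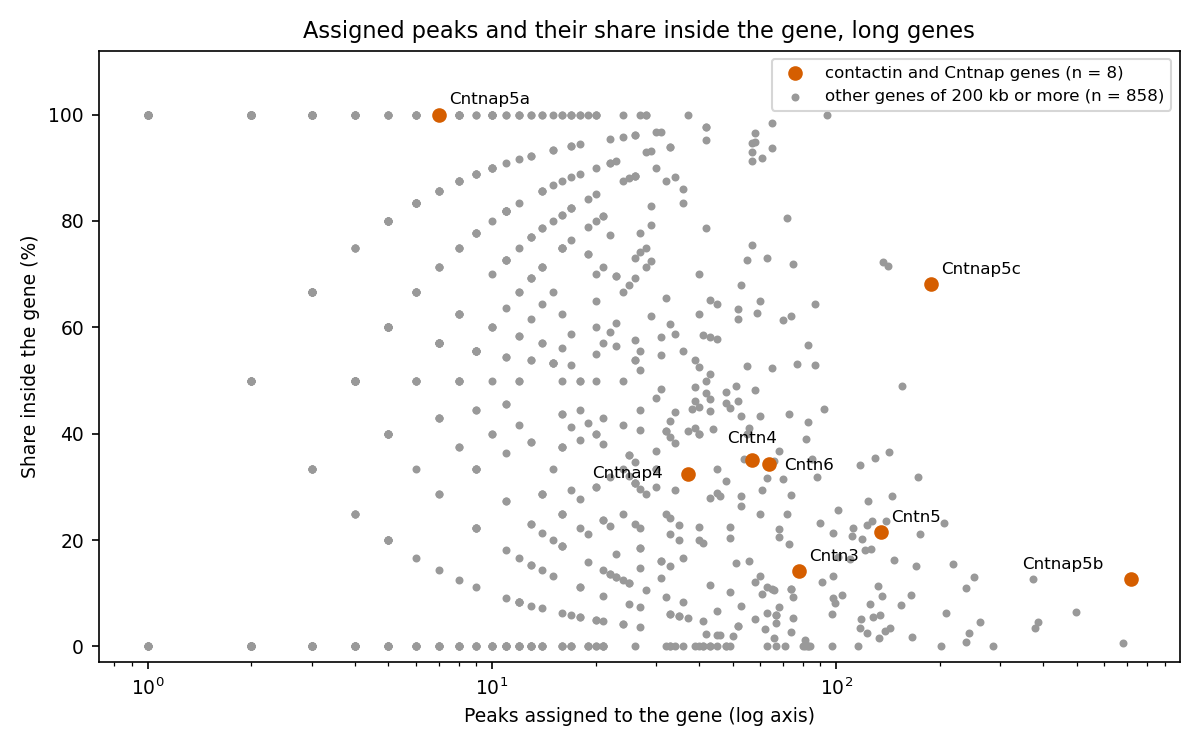
Number of peaks assigned to each gene of 200 kb or more (log axis) against the share of them inside the gene (%); orange points are the 8 contactin and Cntnap genes, grey points the other 858. Cntnap5b lies farthest right at 717 peaks and 12.6%, Cntnap5c stands at 188 peaks and 68.1%, and the remaining 6 lie among the other genes.

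Cntnap2, the Caspr gene of juxtaparanodes, had no row under its symbol or under its gene ID, 500105, and its surroundings are not described here. Of the 20 nearest named protein-coding genes in GRCr8 order, 10 had a row and 10 had none.

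The empty-vector and M2 lists had almost no peak near these genes. Inside the 8 genes the α1ACT 1804 list had 383 of its 161730 peaks (0.237%, 0.214 to 0.262). None of the 81 α1ACT M2 peaks was inside, a count of 0 that allows a share of up to 3.70%. The empty-vector lists also had 0, of 272 peaks with 1804 and of 244 with M2, which allows up to 1.10% and 1.23%. All of these limits lie above 0.237%, so a difference in share was not detectable with lists of this length. The other lists began at higher signals: 53.6 for α1ACT M2, 14.0 for empty-vector 1804 and 19.0 for empty-vector M2. Each is above the 13.2 of the highest peak of the 8 genes, but how signals compare between lists is not stated.

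A single place in the stretch assigned to Cntnap5b was shared with the empty-vector line. There, 1114.5 to 1116.5 kb upstream of the TSS, the α1ACT 1804 list had peaks from 25754391 to 25754446 with a signal of 18.2, from 25755243 to 25755298 with 6.39 and from 25756328 to 25756383 with 25.2. These 3 are not in the annotated table. The empty-vector M2 list had a peak overlapping each of the 3, with signals of 36.2, 27.8 and 47.1, and the empty-vector 1804 list had the last of them, with 28.1. The α1ACT-only peaks of Cntnap5b from 25755599 to 25755654, with a signal of 7.24, and from 25756082 to 25756137, with 2.61, lay 310 bp and 185 bp from the nearest empty-vector peak. These were the only peaks of the 8 genes within 1000 bp of a peak in another list. The same count over all annotated peaks is not given.

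Of the 4 remaining family genes Cntn1, the contactin of paranodal junctions, was assigned 17 peaks and Cntn2, that of juxtaparanodes, 3, with none within 1000 bp of a TSS. Cntnap1, the paranodal Caspr, had 3, one of them 163 bp upstream of the TSS with a signal of 2.34. Cntnap3 had no row. Of 15 partner genes 10 had rows, with a median of 16.5 peaks per gene, against 4 over the table and 16 in other genes of 200 kb or more. A peak within 1000 bp of the TSS was present in 6 of the 10, where 43.2% of all genes listed had one. App, whose product binds contactins, had 4, the highest 44 bp upstream with 17.9. Nrcam, an L1-family adhesion gene, had 2, the highest with 10.4, and the paranodal adhesion gene Nfasc had 1 with 5.58. Epb41l3, the 4.1B scaffold that binds Caspr tails, had 2, the highest with 8.42. Aplp1, a relative of App, had 1 with 4.05, and the synaptic scaffold Dlg4 had 2, both with 2.80. Aplp2, Ptprg, Ptprz1 and Tnr had none, and Chl1, L1cam, Kcna1, Kcna2 and Adam22 had no row. The share of peaks in the upper 10% by signal was 6.70% for the 8 genes and 12.1% (22 of 182, 7.73 to 17.7) for the partners, an interval that covers the 10.0% of the whole table.

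Set beside other families of neuronal adhesion genes, the 8 genes lay between them in the share inside, but the sets differ in gene length. The median length was 734.7 kb in the 8 genes, 145.6 kb in the type II cadherins and 734.5 kb in the neurexins and neuroligins. The 8 genes had 24.9% of 1283 peaks inside the gene and 2 genes with a promoter peak. Type II cadherins, with rows for 9 of 12 genes, had 5.31% of 1732 peaks inside the gene and 3 genes with a promoter peak. Neurexins and neuroligins, with rows for 5 of 6, had 51.2% of 338 peaks inside and no gene with one. The share in the upper 10% by signal was 6.70% in the 8 genes, 6.41% in the cadherins and 6.80% in the neurexins and neuroligins. The median number of assigned peaks per gene was 71 in the 8 genes, 177 in the cadherins and 72 in the neurexins and neuroligins. It was 4 over the table and 16 in other genes of 200 kb or more.

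Among 1600 named genes with 20 or more peaks, 5 were picked as most like the median of these genes. The measures were number of peaks, share inside, median signal and length, and the 5 were Phex, Ccser1, Pcdh15, Ppfia2 and Abca13. Likeness was the distance over these 4 measures in 1 library, taken on a log scale except for the share and each scaled by its SD, from the median of the 7 genes with 20 or more peaks. The 5 lay at distances of 0.320 to 0.598. Of the 7 genes only Cntn6, at 0.513, was as close, and the others lay from 0.985 in Cntn5 to 3.57 in Cntnap5b. Phex had 82 peaks, 39.0% of them inside, and Ccser1 had 68, with 36.8% inside. None of the 5 but Abca13 had a peak within 1000 bp of the TSS.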

How the data were processed

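Chromatin of PC12 cells was immunoprecipitated and sequenced (ChIP-seq). The submitters' processing notes list FastQC 0.11.2, BWA 0.7.5a, DiffBind, ChIPseeker, HOMER and the rat build rn5, without roles. The deposited peak lists give the authors' signal and −log10 q-value per peak; their scaling, the settings of peak calling and the read depth are unknown. The deposited annotated table gives each peak's nearest gene and its distance to the transcription start site (TSS). Signals were joined to it by chromosome and start, and only ranked within the α1ACT 1804 list. Coordinates are 1-based. Peaks were counted with pandas 2.3.3 and SciPy 1.17.1, and the counting was tested on simulated data. Intervals are exact 95% binomial intervals (Clopper-Pearson), and the limits given for a count of 0 are 3 peaks divided by the list's length. Both cover counting error only. They take peaks as independent although many lie close together, so the intervals can be too narrow. With 1 library per group no test between conditions was possible, and peaks are not replicates. The genes and lists were chosen with earlier results of these data known. All 9 genes, each peak within 1000 bp of a TSS, the highest peak per gene and the 3 highest of all are named. The listed relatives and partners and the 5 genes most like the median of the genes examined are also named. Intron numbers follow the chromosome in the annotated table and are given only for plus-strand genes. Alternatives were merged peaks, signal limits, wider genes, other TSS distances and overlap rules; leaving out Cntnap5b and counting only peaks assigned to the gene itself were chosen after seeing the data.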

Additional observations from a re-analysis of the deposited data

How the results depend on the processing

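Of the 1283 peaks assigned to the 8 genes 954 remained when peaks less than 500 bp apart were merged, 558 among the stronger 50%, 86 among the strongest 10% and 624 within 1 Mb of the TSS; 566 remained without Cntnap5b. The share inside the gene was 40.5% without Cntnap5b and between 22.6% and 26.7% under the other alternatives. With peaks in the upper 10% by signal, or without Cntnap5b, 1 gene had a peak near the TSS. The median signal was 2.80 for peaks inside the gene. Density inside the genes was 69.0 peaks per Mb, 4.50 in the upper 10% by signal, 63.1 without Cntnap5b and 57.5 with only peaks assigned to the gene itself. Peaks near a site of another list numbered 0 by overlap, 2 within 1000 bp and 19 within 100 kb. For the empty-vector lists the 0 was fixed in advance, since no annotated peak overlaps an empty-vector peak. The same counts over all annotated peaks are not given. Signal limits and shorter distances lower counts by construction. No paired analysis was possible because each group had 1 library. Nearest-gene assignment limits these counts, since peaks within a gene can be assigned to another, as in Cntn4 and Cntnap5a, and unknown depth limits what a missing peak shows.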
